A study of Rattus norvegicus with 3 samples.

Results

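Genes of cholesterol and fatty acid synthesis were compared between a rat osteosarcoma line, a rat malignant fibrous histiocytoma (MFH) line and cultured rat mesenchymal stem cells (MSCs). The set held 38 genes, taken by name: the enzymes of sterol synthesis, the enzymes that make, elongate, desaturate and activate fatty acids, the regulators of the SREBP system, and the genes of sterol sensing, efflux and transfer. A named probe was on the array for 37 of the 38, out of 13301 genes with one, and each of the 37 passed the scanner software's background call ("well above background") on 1 or more arrays, as did 10010 genes in all. Srebf1, which encodes SREBP-1, had no named probe and was not analysed here. MSCs were well above background for 37 members, COS1NR for 35 and MFH1NR for 32, and 32 members were so on all 3 arrays.

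All cells were of the F344 rat strain. COS1NR is a line of osteosarcoma, a bone-forming tumour, and MFH1NR a line of malignant fibrous histiocytoma, a pleomorphic soft tissue sarcoma. According to the methods, both were established from tumours induced by a quinoline oxide carcinogen and carry mutated p53. MSCs came from femoral marrow, were obtained as the cells that attach to plastic and were not sorted. They were kept in the same base medium as the lines but with a larger share of fetal bovine serum, so effects of serum and of cell type cannot be told apart where MSCs are compared. Each cell type was measured on 1 array and each tumour type by 1 line. There were thus no replicates, nothing was tested, and every difference given here is one between libraries that may include the spread between cultures and labelings.

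Cells make cholesterol from acetyl-CoA through mevalonate, squalene and lanosterol, and fatty acids from acetyl-CoA through malonyl-CoA. When membrane sterol is low, the escort protein Scap carries the SREBP transcription factors to the Golgi, where they are cut and released to switch on genes of both pathways. When sterol is high, Insig proteins hold Scap in the endoplasmic reticulum, while oxysterols activate the LXR receptors, which switch on sterol efflux. SREBP-2 is known mainly for sterol genes and SREBP-1 mainly for fatty acid genes.

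Promoters are shown for 4 members whose signal was lower in MFH1NR than in COS1NR, to give the sequence upstream of the genes whose levels are described next. These 4 had the lowest ratios among the lower members with CCAAT on either strand in the 250 bases before the start. Each window was placed to hold a CCAAT, so its presence in all 4 follows from the choice. They were read from RefSeq on the GRCr8 assembly, which held the region from 250 bases before to 50 bases after the start for 30 of the 38 members and for 33469 promoters in all. The windows are stretches of 120 bases, in lower case and on the strand of the gene, and capitals mark CCAAT and GGGCGG on either strand. Fdps lies at chr2:176804817-176804936 on the minus strand, Insig1 at chr4:8057858-8057977 on the minus strand, Msmo1 at chr16:29746993-29747112 on the plus strand and Hsd17b7 at chr13:84722755-84722874 on the minus strand. The window of Insig1 runs from 208 to 89 bases before the start, and the others end 1 base before it.
Fdps: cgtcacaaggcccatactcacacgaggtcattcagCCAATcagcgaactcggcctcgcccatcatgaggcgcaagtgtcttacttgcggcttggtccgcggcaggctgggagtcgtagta
Insig1: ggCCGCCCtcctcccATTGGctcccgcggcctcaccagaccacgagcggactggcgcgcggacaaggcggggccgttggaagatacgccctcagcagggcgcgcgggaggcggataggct
Msmo1: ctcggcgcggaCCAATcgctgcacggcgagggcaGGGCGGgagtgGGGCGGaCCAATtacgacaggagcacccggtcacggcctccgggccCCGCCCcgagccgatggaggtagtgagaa
Hsd17b7: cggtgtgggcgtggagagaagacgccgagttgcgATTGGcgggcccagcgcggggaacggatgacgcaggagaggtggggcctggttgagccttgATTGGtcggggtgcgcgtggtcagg

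Searched on both strands, CCAAT, the letters bound by NF-Y, was present in 20 of the 30 member promoters (66.7%) and in 37.5% of all promoters of that length. GGGCGG, the letters bound by Sp1, was present in 22 of 30 (73.3%) and in 33.1% of all. Of the members lower in MFH1NR than in COS1NR, 16 had a promoter in the table, of which 12 held CCAAT (75%) and 13 held GGGCGG (81.2%). The E-box CACGTG was present in 5 of 30 member promoters (16.7%), in 1 of the 16 of lower members (6.25%) and in 6.42% of all, and the sterol element letters TCACNCCAC in 0 of 30 and in 1.12% of all. No 2 different motifs overlapped among the lower members. These shares describe letters in a window, and neither binding nor the activity of a factor was measured.

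The gene signals are given as the processed intensity divided by the 75th percentile of the intensity on its array, here called the scaled signal. That percentile was 589 in MSCs against 774 in COS1NR and 994 in MFH1NR, and between 56.6% and 59.7% of spots were well above background. A gene was called higher or lower at a 2-fold difference. Where its probe failed this background call on an array, the fold is a bound, taken from the lowest scaled signal well above background there (0.0305 in MSCs against 0.0380 in COS1NR and 0.0302 in MFH1NR). COS1NR and MFH1NR shared 1 slide and 1 scan while the MSC array lay on another slide, so a slide difference and a cell type difference cannot be told apart whenever MSCs are compared. Within an array, log2 intensities of probes printed many times had a median SD of 0.0469 to 0.0575, and the error that the scanner software assigns to a log2 ratio of the members well above background had a median of 0.20. For genes with a further measured probe, the log2 ratio differed between probes by a median of 0.15 for MFH1NR to COS1NR, 0.28 for COS1NR to MSCs and 0.32 for MFH1NR to MSCs. The 90th percentiles of this difference were 0.59, 0.93 and 1.01, so for the ratios to MSCs they came close to or reached the 2-fold line.

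The labels were set against marker genes. In MSCs, the surface markers Nt5e, Thy1, Eng and Cd44 were all well above background, and so were 10 of 10 macrophage markers, whose summed scaled signal was 110 in MSCs against 12.0 in COS1NR and 4.78 in MFH1NR. Of these, 5 of 10 were well above background in COS1NR and 5 of 10 in MFH1NR. Of 7 osteoblast markers with a probe, 5 were well above background in MSCs, 4 in COS1NR (Alpl, Bglap, Ibsp and Spp1) and 5 in MFH1NR, while Sp7, Dmp1 and Phex were not so in COS1NR. The median log2 ratio was -1.89 for COS1NR to MSCs, over 5 markers with Dmp1 but not Sp7, and 1.05 for MFH1NR to COS1NR, over 5 with Sp7 but not Dmp1. Spp1, osteopontin, had a scaled signal of 61.4 in MSCs against 28.8 in COS1NR and 150.1 in MFH1NR. The osteoblast list thus did not set the osteosarcoma line apart, and the lines are called by their names here.

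By the scaling used, the largest contrast in the gene set lay between the sarcoma lines, which did not hold for the count of calls with no scaling. Of 35 members measured in at least 1 line, 21 were lower by at least 2-fold in MFH1NR, 13 were measured within 2-fold of COS1NR, 1 (Scd) had only a bound under 2-fold, and 0 were higher. With spike-in scaling these counts were 9 lower and 5 higher (Scap, Acly, Fasn, Acsl3 and Abca1), where 670 of all 9422 genes were lower and 3285 higher. With dim signals taken as given, 22 members were lower. With the scaling used, 15.1% of the 9422 genes compared in the same way were lower and 12.4% were higher. The median log2 ratio of MFH1NR to COS1NR was -1.26 for the members and -0.08 for all genes. The 21 lower members were 15 of the 17 sterol enzymes, Srebf2, Insig1, Fads1, Nr1h3, Abcg1 and Stard4. This comparison was made within 1 slide and scan.

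**Figure D1:**
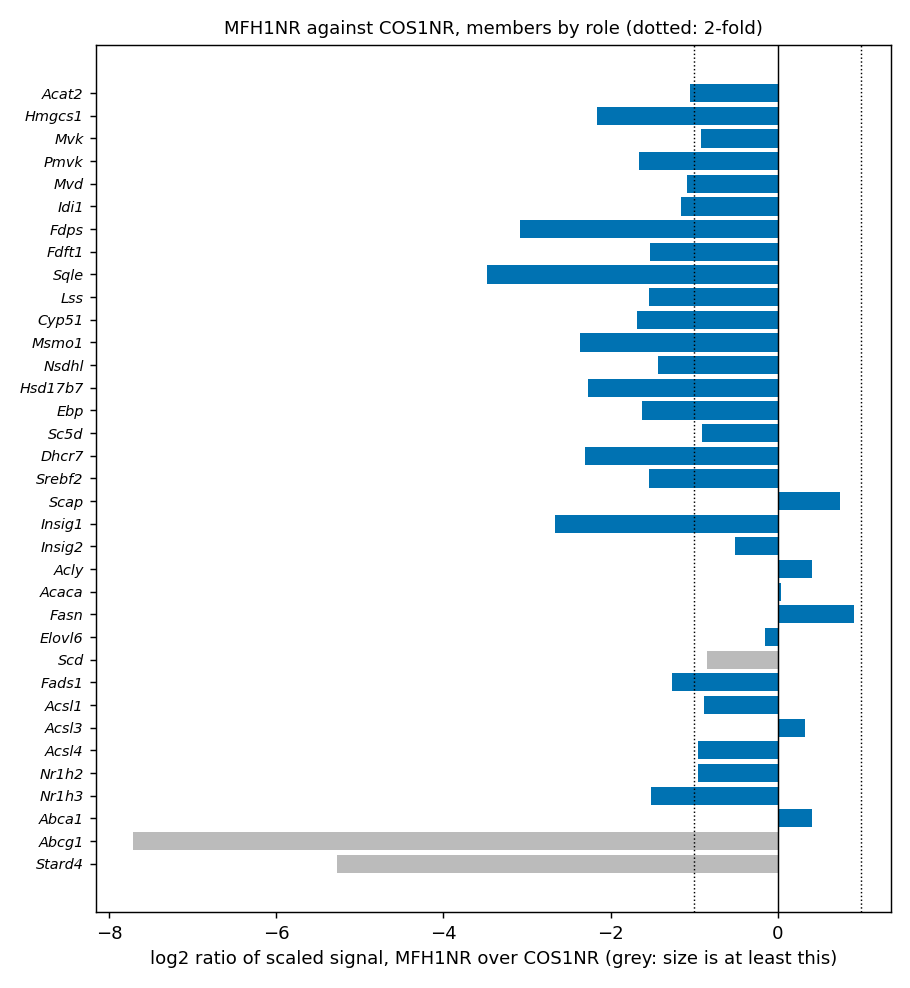
The horizontal axis gives the log2 ratio of the scaled signal of MFH1NR over COS1NR and each bar is 1 member, grouped by role, with dotted lines at 2-fold and grey bars for bounds. All 17 sterol enzymes lie to the left of 0, while the fatty acid enzymes lie on both sides of it.

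Against MSCs, the lines differed in the balance of calls. In COS1NR, 13 of 37 members were higher and 4 lower than in MSCs, where the shares over 9710 genes were 20.6% higher and 20.0% lower. The median log2 ratio was 0.45 for the members and 0.10 for all genes. With spike-in scaling 9 members and 1418 of all 9710 genes were higher, and the medians were 0.18 and -0.16. In MFH1NR, 2 of 37 members were higher and 14 lower than in MSCs, where the shares over 9823 genes were 19.3% higher and 21.6% lower. The 14 became 9 with no scaling and 9 with spike-in scaling, where 1273 and 1471 of the 9823 genes were lower. The median log2 ratio was -0.81 for the members and 0.02 for all genes, and for the members it was -0.056 with no scaling and -0.29 with spike-in scaling, where the median of all genes moved up by 0.76 and 0.52. In both lines, 2 members were higher (Elovl6 and Acsl3) and 2 lower (Scd and Fads2), against 10.8% and 12.9% of 10010 genes. Acsl3 lost its call in COS1NR with quantile normalization (0.99) and spike-in scaling (0.82). The signal was highest in COS1NR for 23 members, in MSCs for 11 and in MFH1NR for 3, and over all genes these shares were 35.1%, 35.6% and 29.3%. Both comparisons use the same MSC array, so their values are given side by side and were not correlated.

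**Figure D2:**
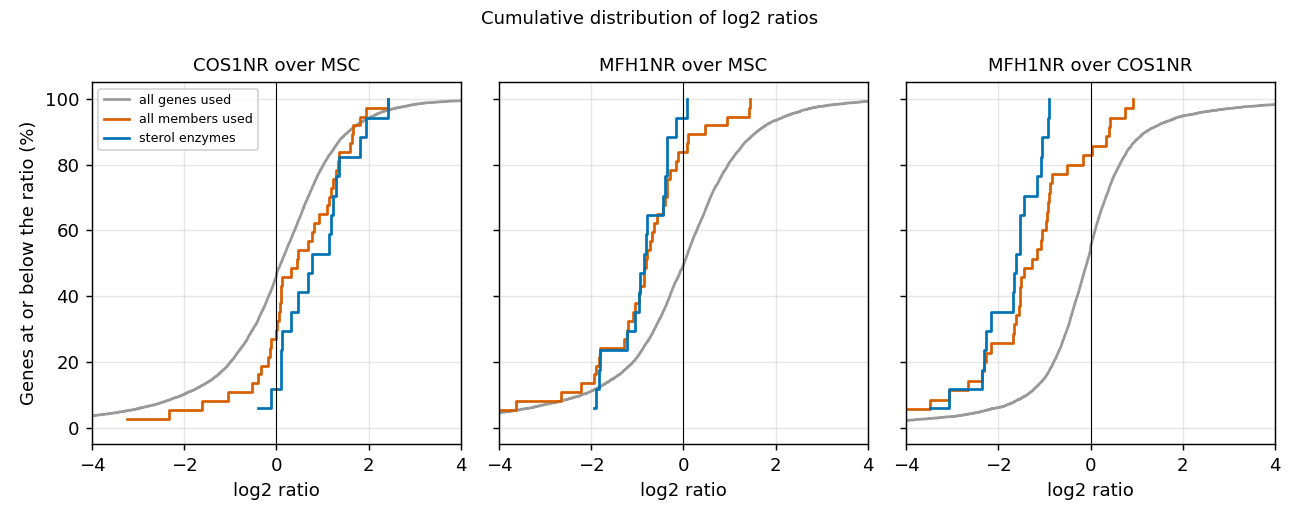
Each panel gives, for 1 pair of arrays, the percentage of genes at or below a log2 ratio, for all genes used, for the members used and for the 17 sterol enzymes, drawn from -4 to 4, with ratios beyond these limits outside the panel. In MFH1NR over COS1NR the curve of the sterol enzymes reaches its top below 0, and its median of -1.62 stands against -0.08 for all genes.

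The 17 sterol enzymes were well above background on all 3 arrays. Their summed scaled signal was 165 in MSCs against 314 in COS1NR and 70.1 in MFH1NR, and the signal was highest in COS1NR for 15 of them, in MSCs for Lss and Cyp51, and in MFH1NR for 0. Against MSCs, 8 were higher and 0 lower in COS1NR, with a median log2 ratio of 0.77, and 0 were higher and 6 lower in MFH1NR, with a median of -0.85. The shares over all genes were 20.6% higher and 20.0% lower in COS1NR and 19.3% and 21.6% in MFH1NR. Between the lines, 17 of 17 were below COS1NR in MFH1NR, with log2 ratios from -3.48 to -0.91, where 5088 of 9422 genes were below 0. Just past the 2-fold line were Acat2, Mvd and Idi1 at -1.05, -1.08 and -1.15, and just short of it were Mvk and Sc5d at -0.92 and -0.91, which differ from it by less than the software error of a ratio. A further probe of Idi1 gave a log2 ratio of -0.997, just short of the line.

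**Figure D3:**
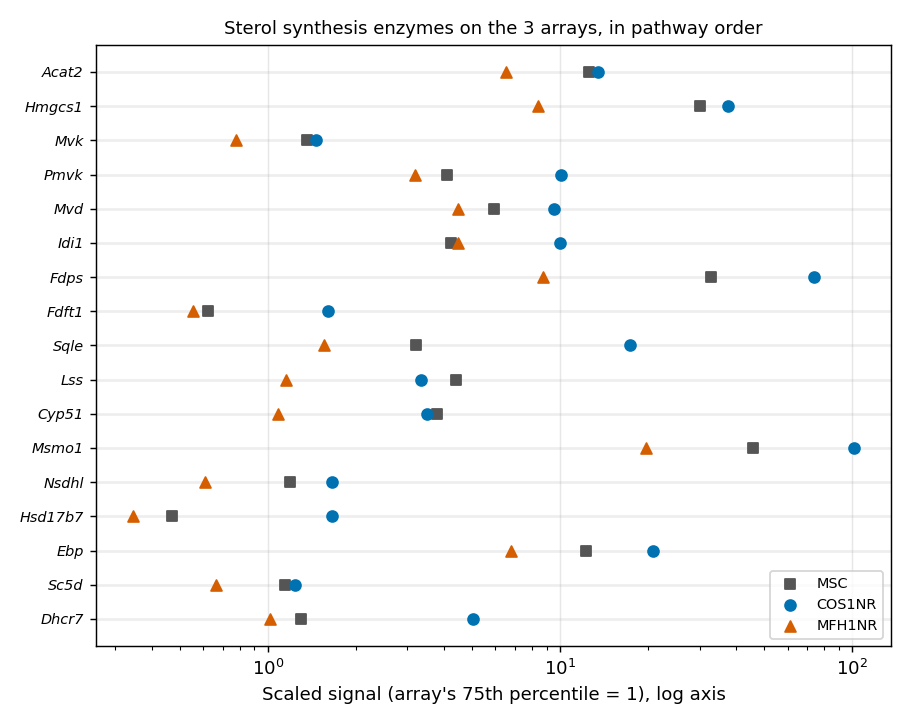
Each row is 1 sterol enzyme in pathway order and each symbol its scaled signal on 1 array, on a log axis where 1 is the 75th percentile of that array. The MFH1NR symbol lies to the left of the COS1NR symbol for 17 of 17 enzymes, by the most for Sqle with 1.56 against 17.4.

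Of the 7 enzymes from acetyl-CoA to farnesyl diphosphate, 6 were lower in MFH1NR than in COS1NR, with a median log2 ratio of -1.15. Acat2, the thiolase that joins acetyl-CoA units in the cytosol, had a scaled signal of 12.5 in MSCs against 13.5 in COS1NR and 6.53 in MFH1NR, so it was 2.07-fold higher in COS1NR than in MFH1NR and close to equal in MSCs and COS1NR. Hmgcs1, the cytosolic HMG-CoA synthase, had 30.0 in MSCs, 37.6 in COS1NR and 8.42 in MFH1NR. MFH1NR stood apart there, 4.46-fold below COS1NR and 3.56-fold below MSCs, while the other two arrays differed 1.25-fold, and a further probe of Hmgcs1 gave 5.14-fold and 4.68-fold. The kinases that phosphorylate mevalonate in turn had unlike values. Mvk had 1.36, 1.46 and 0.776 in MSCs, COS1NR and MFH1NR, within 2-fold in every comparison. Pmvk had 4.10 in MSCs, 10.1 in COS1NR and 3.18 in MFH1NR, so COS1NR stood apart, 2.46-fold above MSCs and 3.17-fold above MFH1NR.

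Mvd, which decarboxylates the product to isopentenyl diphosphate, had a scaled signal of 5.92 in MSCs against 9.51 in COS1NR and 4.48 in MFH1NR, a 2.12-fold difference between the lines. Idi1, which isomerises isopentenyl diphosphate, had 4.25 in MSCs, 9.98 in COS1NR and 4.48 in MFH1NR. MSCs and MFH1NR thus lay close together and COS1NR above both, and Idi1 was the 1 sterol enzyme whose log2 ratio of MFH1NR to MSCs was above 0 (0.08). Fdps builds farnesyl diphosphate, the last step shared with the prenylation of proteins. Its scaled signal was 32.8 in MSCs against 74.2 in COS1NR and 8.75 in MFH1NR, in this order 2.26-fold higher in COS1NR and 3.75-fold lower in MFH1NR than in MSCs. The gap between the lines was 8.47-fold, with log2 ratios of -3.08 by the probe used and -3.40 by a further probe of Fdps, and 315 of 9422 genes had a lower ratio of MFH1NR to COS1NR.

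Each of the 3 enzymes from farnesyl diphosphate to lanosterol was lower in MFH1NR than in COS1NR. Fdft1, squalene synthase and the first enzyme committed to sterols, had a scaled signal of 0.623 in MSCs against 1.60 in COS1NR and 0.554 in MFH1NR. COS1NR was again the array that stood apart, 2.57-fold above MSCs and 2.89-fold above MFH1NR. Sqle, squalene epoxidase and a rate-limiting enzyme of the later pathway, had 3.22 in MSCs, 17.4 in COS1NR and 1.56 in MFH1NR. It had the widest gap of the sterol enzymes, 5.39-fold higher in COS1NR and 2.07-fold lower in MFH1NR than in MSCs and 11.2-fold between the lines, with 266 of 9422 genes at a lower ratio. Lss, which closes squalene epoxide into lanosterol, had 4.41 in MSCs, 3.33 in COS1NR and 1.15 in MFH1NR. There MFH1NR stood apart, 3.84-fold below MSCs and 2.90-fold below COS1NR.

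From lanosterol to cholesterol, 6 of 7 enzymes were lower in MFH1NR than in COS1NR, with a median log2 ratio of -1.69. Cyp51, the demethylase that acts on lanosterol, had a scaled signal of 3.80 in MSCs against 3.50 in COS1NR and 1.09 in MFH1NR, and resembled Lss in that MFH1NR alone lay apart, 3.49-fold below MSCs and 3.22-fold below COS1NR. Msmo1, a sterol methyl oxidase, had 45.8 in MSCs against 102 in COS1NR and 19.7 in MFH1NR, which was 2.22-fold above and 2.32-fold below MSCs and a 5.15-fold gap between the lines. Nsdhl and Hsd17b7 act with Msmo1 to remove methyl groups at the same carbon. Nsdhl had 1.19, 1.65 and 0.611 in MSCs, COS1NR and MFH1NR, with 2.70-fold between the lines. Hsd17b7 had 0.471 in MSCs, 1.66 in COS1NR and 0.345 in MFH1NR, 3.53-fold above MSCs in COS1NR and 4.82-fold between the lines.

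Ebp, the sterol isomerase, had a scaled signal of 12.3 in MSCs against 20.8 in COS1NR and 6.78 in MFH1NR, so the lines lay on either side of MSCs, each within 2-fold of them and 3.07-fold apart. Sc5d, the desaturase that follows, had 1.15, 1.24 and 0.663 in the same order and was within 2-fold in every comparison. Dhcr7 reduces dehydrocholesterol to cholesterol. It had 1.30 in MSCs against 5.03 in COS1NR and 1.01 in MFH1NR, and only COS1NR lay apart, 3.86-fold above MSCs and 4.95-fold above MFH1NR. Across the 3 stretches of the pathway, enzymes at which COS1NR was high and MFH1NR close to MSCs (Pmvk, Idi1, Fdft1, Hsd17b7, Dhcr7) were therefore interspersed with enzymes at which MFH1NR was low and COS1NR close to MSCs (Hmgcs1, Lss, Cyp51), and at Fdps, Sqle and Msmo1 the lines were called in opposite directions. Each of these opposite pairs lost a call under another scaling, though no sign changed. The log2 ratio of MFH1NR to MSCs was -0.29 with no scaling, -0.89 with median scaling and -0.53 with spike-in scaling for Sqle, and -0.46 with no scaling, -0.99 with quantile normalization and -0.70 with spike-in scaling for Msmo1. With spike-in scaling, that of COS1NR to MSCs was 0.88 for Msmo1 and 0.91 for Fdps, and Idi1 lost its call in COS1NR as well (0.96).

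The direction between the lines did not hang on the scaling, but its size did. With no scaling, median scaling, quantile normalization, normexp correction or spike-in scaling, 17 of 17 sterol enzymes stayed lower in MFH1NR than in COS1NR, and 12, 14, 13, 15 and 6 of them by at least 2-fold. The smallest of these came from spike-in scaling, which moved the median of all genes by 0.78 in log2 and gave a median of -0.83 for the sterol enzymes. Against MSCs, 16 of 17 were lower in MFH1NR as scaled here, but 11 with no scaling and 11 with spike-in scaling. That sign was thus not settled for part of the enzymes, while their median lay below that of all genes under each scaling. It was -0.85 against 0.02 as scaled here, -0.10 against 0.77 with no scaling and -0.33 against 0.54 with spike-in scaling. The number at least 2-fold higher in COS1NR was 5 with spike-in scaling, with a median of 0.50 against -0.16 for all genes. The number lower by 2-fold in MFH1NR was 4 with no scaling and 4 with spike-in scaling.

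The SREBP regulators did not move as a block. Srebf2, which encodes SREBP-2, had a scaled signal of 0.127 in MSCs against 0.225 in COS1NR and 0.0771 in MFH1NR, 2.92-fold higher in COS1NR than in MFH1NR, at low signals. A further probe of Srebf2 was not well above background in either line, and with spike-in scaling the log2 ratio between the lines was -0.75, short of a call. Scap, the escort protein, went another way, with 14.9 in MSCs, 4.86 in COS1NR and 8.18 in MFH1NR, 3.05-fold lower in COS1NR than in MSCs and 1.82-fold lower in MFH1NR, and it was called higher in MFH1NR than in COS1NR with no scaling (log2 ratio 1.11) and spike-in scaling (1.54). Insig1, which retains Scap and is itself known as a target of SREBP, had 27.3 in MSCs, 37.3 in COS1NR and 5.88 in MFH1NR.

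MFH1NR stood apart for Insig1, 4.64-fold below MSCs and 6.35-fold below COS1NR, and 386 of 9422 genes had a lower ratio between the lines. Its 4 probes gave 6.29-fold to 7.06-fold between the lines and 4.64-fold to 5.94-fold between MSCs and MFH1NR. Insig2, the related protein that is not driven by SREBP in the same way, had 1.60 in MSCs against 1.41 in COS1NR and 0.989 in MFH1NR and was within 2-fold in every comparison. Between the lines, the sign of the Insig2 ratio turned with spike-in scaling.

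Of 9 fatty acid enzymes that could be compared between the lines, 1 was lower in MFH1NR (Fads1), against 15.1% of all genes, and 0 were higher, and the median log2 ratio was -0.16. This balance turned with the scaling. With no scaling 0 were lower and 1 higher (Fasn), with a median of 0.21. Of all 9422 genes 958 were then lower and 1871 higher, with a median of 0.27. With spike-in scaling 0 were lower and 3 higher (Acly, Fasn and Acsl3), with a median of 0.64. Of all genes 670 were then lower and 3285 higher, with a median of 0.70. The median of all genes thus turned as well, from -0.08 with the scaling used. Against MSCs, 3 of 11 were higher and 2 lower in COS1NR (median 0.02), where all genes gave 20.6% and 20.0%. The sign of the enzymes' median turned with the scaling (0.41 with no scaling, -0.24 with spike-in scaling and -0.41 with normexp correction). In the same order the medians of all genes were 0.49, -0.16 and 0.03. In MFH1NR, 2 were higher and 4 lower (median -0.11), where all genes gave 19.3% and 21.6%. With no scaling 4 were higher and 2 lower (median 0.64), where 4062 of 9823 genes were higher and 1273 lower (median 0.77). With so few enzymes, these counts lie near the shares over all genes.

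The 3 enzymes of synthesis itself were within 2-fold in every comparison with the scaling used, though not for Fasn and Acly under others. Acly, which makes cytosolic acetyl-CoA from citrate for both pathways, had a scaled signal of 24.0 in MSCs against 16.7 in COS1NR and 22.2 in MFH1NR. Acaca, the carboxylase that makes malonyl-CoA, had 0.176, 0.185 and 0.189 in the same order, with log2 ratios of 0.07 for COS1NR to MSCs, 0.11 for MFH1NR to MSCs and 0.03 between the lines. Fasn, fatty acid synthase, had 11.0 in MSCs, 11.2 in COS1NR and 21.1 in MFH1NR. It was 1.89-fold higher in MFH1NR than in COS1NR, just inside the 2-fold line and opposite in direction to the 17 sterol enzymes of the set. A further probe of Fasn gave 9.04 in COS1NR and 15.8 in MFH1NR. With no scaling, Fasn was higher in MFH1NR by a log2 ratio of 1.28 over COS1NR and 1.69 over MSCs, and with spike-in scaling by 1.71 and 1.46. Quantile normalization gave 1.09 and 1.06, and median scaling also called it over MSCs. Acly was called higher in MFH1NR than in COS1NR with spike-in scaling (1.20). The further probe of Fasn put COS1NR below MSCs (9.04 against 13.7), where the probe used put them level.

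The genes of elongation and desaturation differed among themselves. Elovl6, which elongates palmitate, had a scaled signal of 1.56 in MSCs against 4.74 in COS1NR and 4.25 in MFH1NR, 3.03-fold and 2.72-fold above MSCs and 1.11-fold apart between the lines. A further probe of Elovl6 gave 2.02-fold in COS1NR and a log2 ratio of 0.96 in MFH1NR, short of 2-fold. Scd, the stearoyl-CoA desaturase that makes oleate, had 0.514 in MSCs, 0.0542 in COS1NR and 0.00704 in MFH1NR, where it was not well above background. MSCs exceeded COS1NR 9.47-fold and MFH1NR at least 17.0-fold for Scd, and COS1NR exceeded MFH1NR at least 1.79-fold.

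Fads1 and Fads2, the desaturases of polyunsaturated fatty acids, differed from each other. Fads1 had a scaled signal of 4.55 in MSCs against 4.72 in COS1NR and 1.97 in MFH1NR, so MFH1NR lay apart, 2.31-fold below MSCs and 2.40-fold below COS1NR. Both calls of Fads1 were lost with no scaling (log2 ratios -0.45 and -0.90) and with spike-in scaling (-0.69 and -0.47). Fads2 had 0.190 in MSCs and was not well above background in either line (0.0106 and 0.00726), at least 5.01-fold and at least 6.29-fold lower. Elovl5, which elongates polyunsaturated fatty acids, was dim throughout, with 0.0372 in MSCs and no signal well above background in either line, which allows a bound of 1.23-fold below MSCs in MFH1NR and no fold in COS1NR. The macrophage markers given above were high in the same MSC array in which Scd and Fads2 were high, and their part in these values was not tested.

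The acyl-CoA synthetases, which activate fatty acids, each had a pattern of their own. Acsl1 had a scaled signal of 9.69 in MSCs against 24.7 in COS1NR and 13.4 in MFH1NR, highest in COS1NR by 2.54-fold over MSCs and 1.84-fold over MFH1NR. Acsl3 had 3.78 in MSCs, 8.06 in COS1NR and 10.1 in MFH1NR, so both lines lay above MSCs, by 2.13-fold and 2.68-fold. Acsl4, which prefers arachidonate, had 5.39 in MSCs, 4.24 in COS1NR and 2.19 in MFH1NR, 2.46-fold below MSCs in MFH1NR, a call lost with no scaling (log2 ratio -0.55) and spike-in scaling (-0.78). Of the 4 probes of Acsl1, 3 gave at least 2-fold over MSCs in COS1NR and the other gave 1.90-fold.

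**Figure D4:**
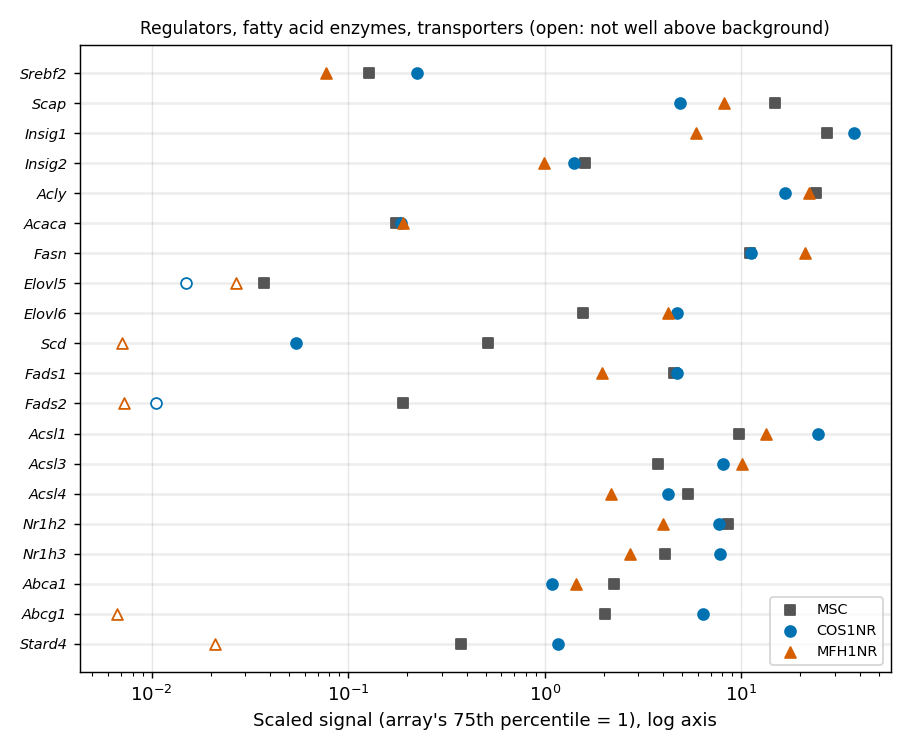
Each row is 1 of the members that are not sterol enzymes and each symbol its scaled signal on 1 array, on a log axis where 1 is the 75th percentile of that array, with open symbols where the probe was not well above background. Abcg1 and Stard4 lie far to the left in MFH1NR, at 0.00666 and 0.0210, while Acaca lies at nearly 1 position on all 3 arrays.

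The sterol transporters differed from each other. Abcg1, a transporter that exports sterol to lipoproteins and a known LXR target, had a scaled signal of 2.02 in MSCs against 6.36 in COS1NR and 0.00666 in MFH1NR. In MFH1NR it was not well above background, which put it at least 66.9-fold below MSCs and at least 210-fold below COS1NR. Abca1, the transporter that loads apolipoprotein A-I and another LXR target, did not share this, with 2.25 in MSCs, 1.08 in COS1NR and 1.44 in MFH1NR, 2.07-fold lower in COS1NR than in MSCs and within 2-fold between the lines. The call of Abca1 against MSCs was lost with no scaling (log2 ratio -0.66), median scaling (-0.95) and normexp correction (-0.88), and with spike-in scaling it was higher in MFH1NR than in COS1NR (1.21).

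The LXR receptors differed less. Nr1h3, LXR-alpha, had a scaled signal of 4.09 in MSCs against 7.82 in COS1NR and 2.73 in MFH1NR, 2.86-fold higher in COS1NR than in MFH1NR. Nr1h2, the widely expressed LXR-beta, had 8.52 in MSCs, 7.72 in COS1NR and 3.99 in MFH1NR, 2.14-fold lower in MFH1NR than in MSCs and 1.93-fold lower than in COS1NR. Stard4, a cytosolic carrier of sterol known as an SREBP target, had 0.375 in MSCs, 1.17 in COS1NR and 0.0210 in MFH1NR. It was 3.11-fold higher in COS1NR than in MSCs, and in MFH1NR it was not well above background, at least 12.4-fold below MSCs and at least 38.6-fold below COS1NR. Abcg1 and Stard4 were each read from 1 probe. With spike-in scaling Nr1h3 was not called between the lines (log2 ratio -0.73), and Nr1h2 was not called against MSCs with no scaling (-0.34), median scaling (-0.93) or spike-in scaling (-0.57).

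Genes of the same pathways outside the set were counted from a list. Of 14 other sterol genes with a probe, 1 was higher and 6 were lower in MFH1NR than in COS1NR, with a median log2 ratio of -0.68. Against MSCs, 1 was higher and 2 lower in COS1NR and 1 was higher and 5 lower in MFH1NR. The shares over all genes were 12.4% higher and 15.1% lower between the lines, 20.6% and 20.0% in COS1NR to MSCs, and 19.3% and 21.6% in MFH1NR to MSCs. Tm7sf2, a sterol reductase, and Mylip, a ubiquitin ligase of lipoprotein receptors, were lower in both lines. Tm7sf2 had a scaled signal of 2.65 in MSCs against 0.264 in COS1NR and 0.518 in MFH1NR. Between the lines it was 1.97-fold higher in MFH1NR, opposite in direction to the 17 sterol enzymes of the set. Mylip had 5.75, 2.79 and 0.00686, the last not well above background. Of 14 other fatty acid genes above background on some array, 0 were higher and 4 lower in MFH1NR than in COS1NR, with a median of -0.27. Against MSCs, 3 of 13 were higher and 2 lower in COS1NR, and 0 of 14 were higher and 4 lower in MFH1NR, so that most counts of this list lie near or below those shares. Scd2, a further stearoyl-CoA desaturase, was lower in both lines, with 34.6 in MSCs, 12.6 in COS1NR and 14.8 in MFH1NR.

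Markers of fat cells moved with the contrast between the lines. The adipocyte list held 9 genes with a probe, of which 7 were well above background in MSCs, as many as 7 in COS1NR but 2 in MFH1NR, and their summed scaled signal was 9.14, 44.9 and 0.415. Fabp4, the fatty acid carrier of fat cells, had 0.521 in MSCs against 28.2 in COS1NR and 0.0236 in MFH1NR, and Pparg, the transcription factor of their differentiation, had 0.296, 2.12 and 0.0137. Lpl, lipoprotein lipase, had 0.775, 7.39 and 0.00743. None of these 3 genes was well above background in MFH1NR, and all 3 were highest in COS1NR. Cfd (adipsin) went the other way between MSCs and COS1NR, with 7.22 and 3.06, and had 0.00980 in MFH1NR. Of 8 markers compared between COS1NR and MSCs, 6 were higher and 1 lower in COS1NR. Of the defining markers, Adipoq (adiponectin) was not well above background in either line and Lep (leptin) on none of the arrays. Between the lines, 6 of 7 adipocyte markers were lower in MFH1NR, with a median log2 ratio of -6.13 taken at the bounds. Their part in the differences of the sterol genes, of Abcg1 and of Nr1h3 was not tested.

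**Figure D5:**
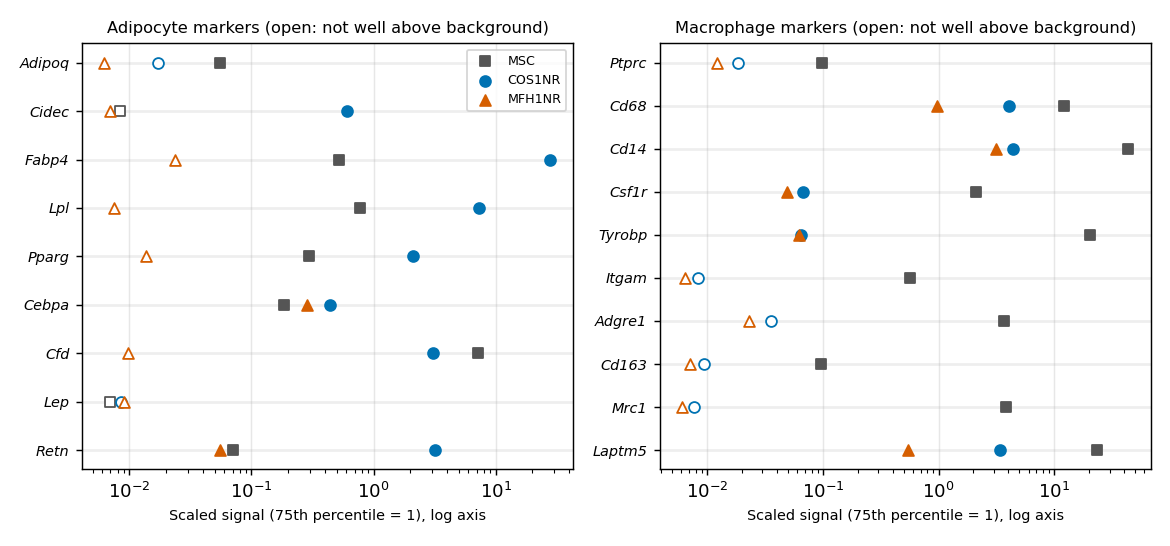
Each panel holds 1 marker list, with the scaled signal of each gene on the 3 arrays on a log axis where 1 is the 75th percentile of that array, and open symbols where the probe was not well above background. The summed scaled signal of the macrophage markers is highest in MSCs (110) and that of the adipocyte markers in COS1NR (44.9, of which 28.2 is Fabp4), while Cfd and Adipoq lie highest in MSCs.

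Genes of cell division were set beside the lines as well. The 8 proliferation markers with a probe were all at least 2-fold higher in COS1NR and in MFH1NR than in MSCs, by median log2 ratios of 2.56 and 2.48. Between the lines, 0 of 8 differed 2-fold and the median log2 ratio was -0.28, while the sterol enzymes had a median of -1.62 on the same arrays.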

How the data were processed

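Cy3-labeled RNA of MSCs, COS1NR and MFH1NR was hybridized to 1 Agilent whole rat genome array per cell type. Per the file headers, the authors made the deposited processed intensity of each spot with Agilent Feature Extraction 10.5.1.1 (the labels name 9.1), with background subtracted and no scaling between arrays. The deposited series table held the same intensities. The methods and labels name different RNA and labeling kits.

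Control spots and outlier spots (187 to 217 per array) were left out, and spots of a probe were averaged on the log2 scale. The 75th percentile of an array's spots set its scale, and log2 intensities were taken against it. RefSeq accessions of the probes were named through a GRCr8 gene table, which named 16745 of 40816 probes. The design annotation is of an earlier build. A gene was read from its probe of highest mean signal, and 9 members had several. Genes were used if well above background on at least 1 of the arrays compared, and called at 2-fold. No spot was saturated. Depth here is signal over background, and the number of arrays limits the precision.

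All members are accounted for, and values on every array are given for members called in the same direction in both lines, in opposite directions or between the lines, and for further members of each role group. Other pathway genes were named where called in both lines. The members, gene lists and motifs were chosen with earlier results of these data known. Alternatives were no scaling, median, quantile and spike-in scaling, normexp with an offset of 50 on median spot intensities (R 4.3.3, limma 3.58.1), other probe rules, filters and a 3-fold threshold. Only the rules for calls and bounds were tested on simulated data. Python 3.11.15 with numpy 2.4.6, pandas 2.3.3 and matplotlib 3.10.9 was used.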

Additional observations from a re-analysis of the deposited data

Results flagged for a closer look

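Against MSCs, 5 members were called in opposite directions, higher in COS1NR and lower in MFH1NR, each on 1 array, and the difference was not tested. The log2 ratio of MFH1NR over COS1NR was -3.08 for Fdps, -3.48 for Sqle and -2.37 for Msmo1. It was -7.72 for Abcg1 and -5.27 for Stard4, both bounds because neither was well above background in MFH1NR. For Abcg1 and Stard4 both calls against MSCs held under no scaling, median, quantile and spike-in scaling and normexp correction. For Fdps the call in COS1NR was lost with spike-in scaling (0.91), for Sqle the call in MFH1NR with no scaling (-0.29), median scaling (-0.89) and spike-in scaling (-0.53), and for Msmo1 the call in MFH1NR with no scaling (-0.46), quantile normalization (-0.99) and spike-in scaling (-0.70), and that in COS1NR with spike-in scaling (0.88).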

How the results depend on the processing

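With 1 array per cell type no replicate could be left out, and no paired analysis was possible because each cell type has a single array and no test was made. Over 11 alternatives, 1034 of 1185 recomputed values kept their side of the 2-fold line or moved by less than the spread taken for them, 42 fell short of a call, 22 gained one, 87 moved and 0 changed the sign of a called value. The median of all genes was shifted by 0.39, 0.76 and 0.35 in log2 with no scaling and by -0.26, 0.52 and 0.78 with 7 spike-in probes for COS1NR to MSC, MFH1NR to MSC and MFH1NR to COS1NR, and by 0.10 and 0.16 with median scaling for the ratios to MSC. In COS1NR to MSC, higher members were 6 at 3-fold, lower members were 2 with a signal required on all arrays, and the member median was 0.84 with no scaling and 0.14 with the second probe. In MFH1NR to MSC, higher members were 4 with no scaling, 1 with the second probe and 0 at 3-fold. Lower members there were 9 with no scaling, 9 with spike-in scaling and 9 at 3-fold, and the median was -0.056 with no scaling and -0.29 with spike-in scaling. In MFH1NR to COS1NR, higher members were 2 with no scaling, 1 with quantile normalization and 5 with spike-in scaling, and lower members were 9 with spike-in scaling and 12 at 3-fold. The median there was -0.90 with no scaling, -0.47 with spike-in scaling and -1.44 with dim signals as given. Members higher in both lines were 1 with quantile normalization, 1 with spike-in scaling, 1 with the second probe and 0 at 3-fold, and members lower in both were 0 with a signal required on all arrays, since Scd and Fads2 are dim in a line. The cause of the other shifts was not tested.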

Other observations

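Some genes of the other pathway lists fell outside the rule for naming and were chosen after their values were seen. Mid1ip1, a partner of acetyl-CoA carboxylase, had a scaled signal of 3.52 in MSCs against 20.7 in COS1NR and 0.00759 in MFH1NR, where it was not well above background, at least 686-fold below COS1NR. Slc25a1, the mitochondrial citrate carrier, had 3.74, 7.88 and 2.12 in the same order, 3.72-fold higher in COS1NR than in MFH1NR. Soat1, which esterifies cholesterol for storage, had 0.401 in MSCs, 0.521 in COS1NR and 1.05 in MFH1NR, the 1 gene of the other sterol list that was at least 2-fold higher in MFH1NR than in COS1NR. Acacb and Acsl6 were not well above background on any array.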
